A study of Rattus norvegicus with 44 samples.

Results

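MHC class II molecules are pairs of an alpha and a beta chain that present peptides from engulfed proteins to CD4 T cells. In the rat they are encoded in the RT1 complex, where RT1-Da and RT1-Db1 form the RT1-D molecule and RT1-Ba and RT1-Bb form RT1-B. The invariant chain Cd74 holds the new molecule and guides it to the endosome, RT1-DMa and RT1-DMb form the molecule that helps load the peptide, and Ciita is the transactivator that switches the family on. In healthy brain these genes are known mainly from microglia and from macrophages and dendritic cells at the brain's borders, and they are known to respond to interferon gamma. These 8 genes were chosen as the members, and each was looked up by its symbol in the deposited normalized table. That gave 9 probes of 6 genes, of 26033 probes and 11167 gene symbols tested: 2 probes each for RT1-Da, RT1-Db1 and RT1-Bb and 1 each for RT1-Ba, RT1-DMa and Cd74. RT1-DMb and Ciita had no probe under their symbol, and a Ciita probe found through its RefSeq accession is described apart. All 9 member probes passed the filter on low values. For 6 of them every one of the 28 arrays outside core and periinfarct cortex was well above background, whereas RT1-Ba was so on 0 of these 28, so that it passed through the ischemic groups.

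Adult Sprague-Dawley rats had the right middle cerebral artery (MCA) ligated permanently through a small craniotomy, with both carotid arteries closed for a time, and core, periinfarct and contralateral cortex were taken at 24 h or at 3 d. Sham-operated rats had the same anesthesia (ketamine, diazepam and atropine), meloxicam and surgery without occlusion, and gave ipsilateral and contralateral cortex at both times. Healthy rats gave ipsilateral cortex and were the control. Each of the 11 groups had 4 one-color arrays, 44 in all, and each array held RNA pooled from 3 rats, so that the spread is between pools and differences between single rats are averaged out. Pools 1 to 4 (24 h) and 9 to 12 (3 d) each gave core, periinfarct and contralateral cortex, pools 5 to 8 and 13 to 16 both hemispheres of sham-operated rats, and pools 17 to 20 healthy cortex. Levels are normalized signals on the log2 scale, on which 1 unit is a 2-fold difference, and they are compared between groups for 1 probe and never between probes. A probe is said to be called where limma's Benjamini-Hochberg adjusted p was below 0.05 and the difference at least 2-fold. Between 62.5% and 77.7% of the spots of an array were well above background, and no spot was saturated. In cortex taken whole, more cells of a type and more RNA per cell cannot be told apart.

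The promoters show a feature that the choice of members did not use, and the stretch of each that carries it is given here. Class II promoters are known for a shared module in which an X box, bound by the RFX complex, precedes a Y box, bound by NF-Y, and which Ciita needs to act. The sequences are RefSeq's (GRCr8) and are printed 5′ to 3′ on the strand of the gene. Capitals mark the letters GNNAC of an X-like element and the ATTGG of the Y box, with CTG before it where present, or the inverted form CCAAT. RT1-DMb and Ciita were not in the promoter table.
RT1-Da, chr20:4515323-4515380 (+): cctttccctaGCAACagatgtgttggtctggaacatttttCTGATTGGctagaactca
RT1-Db1, chr20:4560228-4560284 (-): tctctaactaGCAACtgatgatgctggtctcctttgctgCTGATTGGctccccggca
RT1-Ba, chr20:4576971-4577028 (+): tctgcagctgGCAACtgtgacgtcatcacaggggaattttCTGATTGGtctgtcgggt
RT1-Bb, chr20:4604165-4604221 (-): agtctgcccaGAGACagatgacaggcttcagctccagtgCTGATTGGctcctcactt
RT1-DMa, chr20:4712385-4712442 (-): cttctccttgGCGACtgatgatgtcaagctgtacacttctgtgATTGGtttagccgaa
Cd74, chr18:56526980-56527031 (+): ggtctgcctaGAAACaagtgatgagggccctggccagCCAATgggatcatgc

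In the 5 RT1 promoters the ATTGG began 32 or 33 bases after the GNNAC, and in Cd74 the CCAAT began 27 bases after it. The pair lay close to the annotated start in RT1-Ba, where the Y box began 43 bases before it, and farthest in Cd74, at 189 bases. All 4 chain genes held the longer form CTGATTGG on their own strand, which 1.69% of the 33469 promoters in the table held in the 250 bases before the start. GNNAC followed within 25 to 40 bases by ATTGG or CCAAT, searched on both strands, was in all 6 members with an entry and in 13.2% of all promoters. ATTGG on either strand alone was in 34.0%. These letters and spacings were chosen after the 6 sequences were read, so they describe the promoters and test nothing.

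Most class II probes were called higher than in healthy cortex in periinfarct cortex at 24 h and few in the core, and at 3 d all were called in both areas. In the core at 3 d all 9 probes were called higher than in healthy cortex, between 6.44-fold for RT1-DMa, the peptide-loading chain, and 33.8-fold for the second RT1-Bb probe, where 13.1% of all tested probes were called higher. In periinfarct cortex at 3 d 9 of 9 were again called higher (6.17% of all), with log2 changes between 1.71 and 3.39. That periinfarct count rested on the spread estimated over all 11 groups: with periinfarct and healthy cortex fitted alone it was 0 of 9, where 1.14% of all probes were called in either direction against 7.31% in the fit of all groups. The change of RT1-Da was 2.99 in both fits, with an adjusted p of 0.057 in the smaller one. RT1-Ba passed the filter only through groups in which it was high, so that its part in these counts is no support, and the other 8 probes give 8 of 8 in both areas at 3 d. At 24 h 6 of 9 were called higher in periinfarct cortex (7.79% of all) and 2 of 9, RT1-DMa and Cd74, in the core (6.71% of all), although the log2 change was above 0 for 9 of 9 probes in both. The median over the 9 probes was 1.16 in the core and 1.39 in periinfarct cortex at 24 h, and 4.33 and 2.71 at 3 d. The medians over all tested probes were -0.08, -0.06, -0.23 and -0.11 in the same order.

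**Figure D1:**
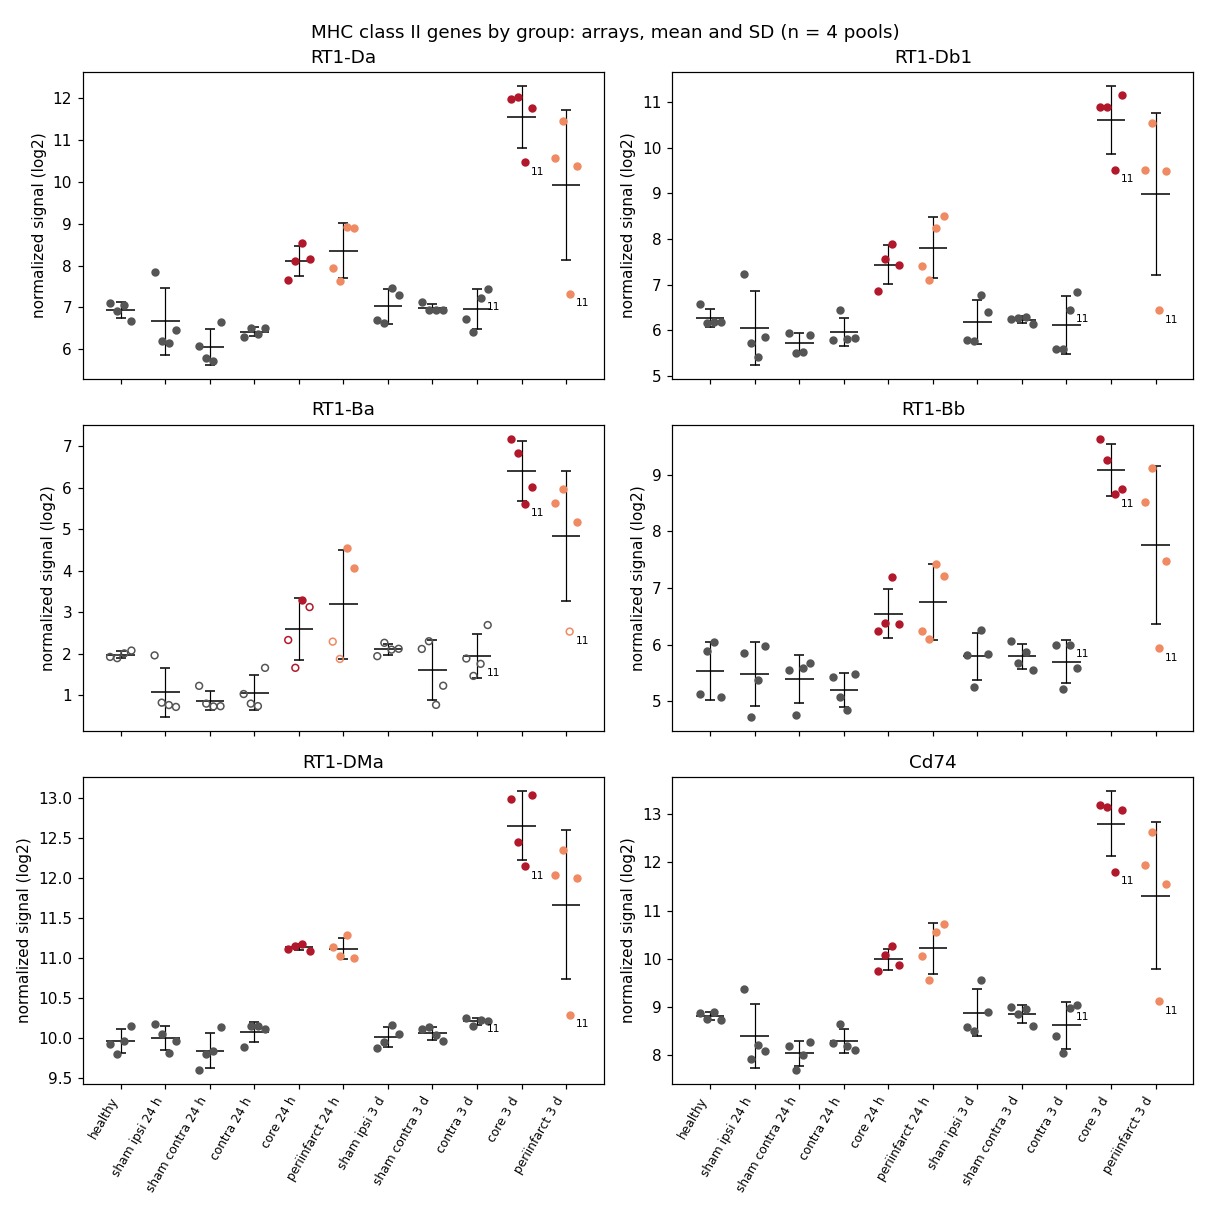
Normalized log2 signal (y axis) of the main probe of 6 class II genes on each array, by group (x axis); points are arrays, open points are not well above background, bars are the mean and SD of 4 pools, and 11 marks pool 11. The core at 3 d had the highest mean for every gene, and the periinfarct array of pool 11 stood far below the other 3 periinfarct arrays at 3 d.

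The RT1-D chains were called higher than in healthy cortex in both areas at 3 d, but at 24 h in periinfarct cortex only. RT1-Da, the alpha chain, was at 7.11, 6.91, 7.06 and 6.67 in healthy pools 17 to 20. In pools 1 to 4 at 24 h it was at 7.65, 8.11, 8.53 and 8.15 in the core and at 7.95, 7.64, 8.93 and 8.90 in periinfarct cortex. In pools 9 to 12 at 3 d it was at 11.99, 12.03, 10.47 and 11.77 in the core and at 10.58, 11.45, 7.32 and 10.38 in periinfarct cortex. Every ischemic array was above every healthy array, and pool 11 was the lowest in both areas at 3 d. The log2 change from healthy was 1.17 ± 0.49 (SE, limma adjusted p = 0.0612) in the core and 1.42 ± 0.49 (adjusted p = 0.0194) in periinfarct cortex at 24 h. At 3 d it was 4.63 ± 0.49 (adjusted p = 1.86e-09, 24.7-fold) in the core and 2.99 ± 0.49 (adjusted p = 4.29e-05, 7.94-fold) in periinfarct cortex. The second RT1-Da probe changed by 4.20 ± 0.58 and 2.71 ± 0.58 at 3 d, both called, but by 0.72 and 0.83 at 24 h, neither called. The main probe's call in periinfarct cortex at 24 h was lost with the slide as a block in the fit (1.365, limma adjusted p = 0.0759). It was also lost with the mean of the 2 probes (1.121, limma adjusted p = 0.0811), and without the array of periinfarct pool 3 or 4 or of healthy pool 20.

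RT1-Db1, the beta chain that pairs with RT1-Da, followed the same course on both of its probes. Its main probe was at 6.57, 6.17, 6.18 and 6.19 in healthy cortex, and at 10.88, 10.88, 9.51 and 11.16 in the core at 3 d, without overlap. In periinfarct cortex at 3 d pools 9, 10 and 12 were at 9.51, 10.54 and 9.48, whereas pool 11 was at 6.44, within the healthy range. The changes from healthy at 3 d were 4.33 ± 0.50 (adjusted p = 8.18e-09) in the core and 2.72 ± 0.50 (adjusted p = 1.60e-04) in periinfarct cortex. Its second probe changed by 4.33 ± 0.50 and 2.69 ± 0.50, and the deviations of the 2 probes from their group means correlated at r = 0.976 over the 44 arrays.

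RT1-Ba, the alpha chain of RT1-B, was the one member without a measured healthy level. It was well above background on 0 of 4 healthy arrays, 1 of 4 in the core and 2 of 4 in periinfarct cortex at 24 h, and on 4 of 4 and 3 of 4 at 3 d. Having passed the filter through the ischemic groups, it had to differ from the control groups, and its tests are given as a description. The core arrays at 3 d were at 7.18, 6.83, 5.61 and 6.01, against 1.93, 1.90, 2.01 and 2.08 in healthy cortex. With the healthy arrays set to the lowest signal among probes well above background, the gene was at least 13.3-fold higher in the core at 3 d and at least 4.45-fold higher in periinfarct cortex. The adjusted p of the differences without that floor was 2.01e-08 and 2.02e-04. In periinfarct cortex at 3 d it was at 5.63, 5.98 and 5.17 in pools 9, 10 and 12 and, not above background, at 2.53 in pool 11.

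RT1-Bb, the beta chain of RT1-B, gave different pictures on its 2 probes. The main probe was at 5.13, 5.89, 6.05 and 5.07 in healthy cortex and at 9.64, 9.27, 8.66 and 8.75 in the core at 3 d, a change of 3.54 ± 0.41 (adjusted p = 1.22e-08, 11.6-fold). In periinfarct cortex at 3 d it was at 8.52, 9.11, 5.94 and 7.48, a change of 2.23 ± 0.41 (adjusted p = 1.95e-04). Pool 11 again lay within the healthy range there. At 24 h its changes were 1.02 ± 0.41 (adjusted p = 0.0543) in the core and 1.22 ± 0.41 (adjusted p = 0.0175) in periinfarct cortex. That periinfarct call was lost without the array of periinfarct pool 3 or 4 or of healthy pool 17 or 20. The second probe changed by 5.08 in the core at 3 d but with an SE of 1.11, since its healthy arrays alone ran from 3.44 to 6.44.

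RT1-DMa and Cd74, which serve peptide loading and assembly, were the 2 genes called in both areas at both times. RT1-DMa was at 9.93, 9.79, 9.96 and 10.15 in healthy cortex and within 11.09 and 11.17 on all 4 core arrays at 24 h, a change of 1.17 ± 0.23 (adjusted p = 2.13e-04). At 3 d it was at 12.98, 12.44, 12.14 and 13.03 in the core, a change of 2.69 ± 0.23 (adjusted p = 6.54e-11), the smallest change but the smallest adjusted p of the 9 probes. Periinfarct arrays at 3 d were at 12.03, 12.34, 10.29 and 11.99, a change of 1.71 ± 0.23 (adjusted p = 4.59e-06). Cd74 was at 8.87, 8.74, 8.89 and 8.73 in healthy cortex, and in the core it was at 9.76, 10.07, 10.26 and 9.87 at 24 h and at 13.18, 13.14, 11.80 and 13.09 at 3 d. Its changes were 1.18 ± 0.42 (adjusted p = 0.0281) and 3.99 ± 0.42 (adjusted p = 1.73e-09, 15.9-fold). The Cd74 call in the core at 24 h was lost with the slide as a block in the fit (1.135, limma adjusted p = 0.0831). It was also lost without the array of core pool 2 or 3 or of healthy pool 18 or 20. In periinfarct cortex Cd74 was at 10.05, 9.56, 10.55 and 10.73 at 24 h and at 11.94, 12.62, 9.12 and 11.55 at 3 d, changes of 1.41 ± 0.42 (adjusted p = 0.00709) and 2.50 ± 0.42 (adjusted p = 6.40e-05).

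**Figure D2:**
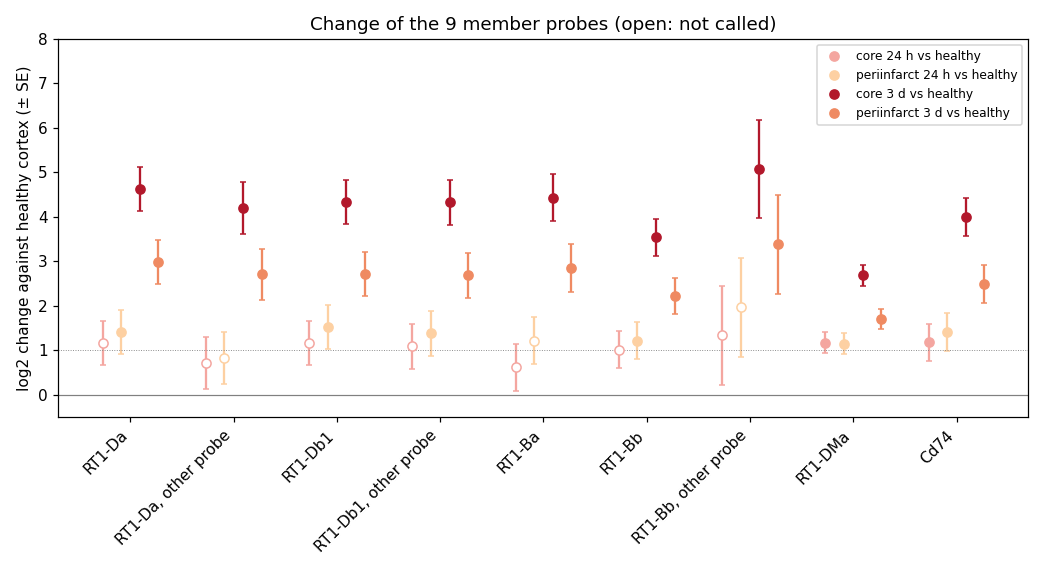
Log2 change against healthy cortex (y axis, ± SE) of the 9 member probes (x axis) in the 4 ischemic groups, each of 4 pools against 4; filled points were called and open points were not. The core at 3 d stood highest for every probe, between 2.69 and 5.08, and the SE of the second RT1-Bb probe was the widest, at 1.11.

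Ciita was near the limit of the array, and it passed the filter only through the core at 3 d, so that its differences from that group are descriptions. Its probe was well above background on 3 of 4 core arrays at 3 d, at 3.59, 3.48 and 3.86 with pool 11 at 3.40, and on 1 of 4 healthy arrays, pool 18 at 5.08. Its change in the core at 3 d was 1.41 ± 0.65 against healthy cortex (adjusted p = 0.067, not called). Its level in the core at 3 d was at least 1.82-fold higher than in the core at 24 h and at least 2.03-fold higher than in contralateral cortex of the same pools, in both of which the probe was above background on no array. The probe whose description names a further RT1-D beta1 chain, without a symbol, changed by 4.03 ± 0.67 in the core at 3 d (adjusted p = 5.38e-06). Another RT1-Ba probe and another RT1-Db1 probe, found through their accessions, failed the filter on low values and were well above background on 1 and 0 of 44 arrays.

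The choice of control changed the picture at 24 h. Against the ipsilateral cortex of sham-operated rats at the same time, 7 of 9 probes were called higher in the core at 24 h (6.22% of all) and 8 of 9 in periinfarct cortex (6.53% of all). Against the contralateral cortex of the same pools the counts were again 7 of 9 (5.9% of all) and 8 of 9 (7.92% of all). At 3 d all 9 were called higher against either control, in the core (12.8% and 12.9% of all) and in periinfarct cortex (5.8% and 5.96% of all). RT1-Ba is in each of these counts, but was above background on none of these control arrays. It passed the filter only through ischemic groups at 3 d, so that its part in the counts is no support. RT1-Da was at 7.84, 6.20, 6.14 and 6.46 in ipsilateral cortex of sham pools 5 to 8 and at 6.29, 6.51, 6.37 and 6.49 in contralateral cortex of pools 1 to 4. All of these but pool 5 were below the 4 healthy arrays.

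No member differed between control tissues by the call rule. Ipsilateral sham cortex against healthy cortex gave 0 of 9 called by limma at 24 h (0% of all probes, with 1 member probe at an unadjusted p below 0.05) and 0 of 9 at 3 d (0% of all, 0 unadjusted). Among all 26033 probes limma's unadjusted p was below 0.05 for 6550 at 24 h and for 133 at 3 d. These 2 controls thus differed more widely at 24 h than the calls show. The paper reports genes below its adjusted p limit between sham-operated and healthy rats, without naming the time. Ipsilateral against contralateral sham cortex gave 0 of 9 at 24 h (0.00384% of all) and 0 of 9 at 3 d (0% of all), with 0 unadjusted at either time. Contralateral cortex of the occluded rats against contralateral sham cortex gave 0 of 9 at 24 h (0.00384% of all) and 0 of 9 at 3 d (0% of all), again with 0 unadjusted, although the RT1-DMa arrays of the groups did not overlap at 3 d. For Cd74 the difference between contralateral cortex and contralateral sham cortex at 3 d was -0.24, with a 95% interval from -1.10 to 0.61, so that a fall of about 2-fold lay within it.

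Ordered by mean level, the 4 ischemic groups stood above the 7 others for all 6 genes. The order was core at 3 d, periinfarct at 3 d, periinfarct at 24 h and core at 24 h for 5 genes, with the last 2 exchanged for RT1-DMa. RT1-Ba is in both counts of genes, but it passed the filter only through ischemic groups at 3 d, so that its part is no support. Neighbors in that order overlapped in range. The core at 24 h also overlapped control groups for RT1-Da, RT1-Db1 and RT1-Bb, its lowest arrays being at 7.65, 6.87 and 6.25. The highest ipsilateral sham arrays were at 7.84 and 7.22 (24 h) for the first 2 genes and at 6.26 (3 d) for RT1-Bb. Among the 7 other groups neighbors overlapped for every gene, and contralateral sham cortex at 24 h was the lowest for 4 of the 5 genes measured there. RT1-Ba was above background in none of these groups and has no order among them.

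No member was called between core and periinfarct cortex at 24 h, and the calls at 3 d rested on single arrays. At 24 h 0 of 9 probes were called by limma (0.0538% of all were called higher in the core, and 0 member probes had an unadjusted p below 0.05). The difference was -0.25 for RT1-Da (95% interval -1.24 to 0.75) and 0.02 for RT1-DMa (-0.45 to 0.49). At 3 d 6 of 9 were called higher in the core (3.51% of all), at both RT1-Db1 probes, RT1-Da, RT1-Ba, the main RT1-Bb probe and Cd74, and RT1-DMa missed the 2-fold limit at 1.97-fold (adjusted p = 0.00602). RT1-Da differed by 1.64 ± 0.49 (adjusted p = 0.0191) and Cd74 was 2.82-fold higher (adjusted p = 0.0141), and for 0 of 9 member probes was every core array above every periinfarct array (1.7% of all). Without the periinfarct array of pool 11 or the core array of pool 9 the count was 0 of 9, and without the core array of pool 10 it was 1. Without the periinfarct array of pool 11 the difference was 0.76 for RT1-Da (adjusted p = 0.245) and 0.77 for Cd74 (adjusted p = 0.179). With the pool as a fixed block in a fit of these 2 groups alone the difference of RT1-Da was still 1.64 (adjusted p = 0.167), and 0 of 26033 probes were called, members included. With both arrays of pool 11 left out, a setting added after the values were seen, the difference was 1.13 for RT1-Da (adjusted p = 0.021) and 1.10 for Cd74 (adjusted p = 0.0105), and 4 of 9 were called.

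Between 24 h and 3 d the members rose in the core. All 9 probes were called higher at 3 d (9.48% of all), by between 1.52 for RT1-DMa and 3.74 for the second RT1-Bb probe among the 8 measured at both times. RT1-Ba, above background on 1 of 4 core arrays at 24 h, differed by 3.81. For all 9 every core array at 3 d was above every core array at 24 h (13.9% of all). RT1-Ba passed the filter only through groups at 3 d, so that its part in both counts is no support. The other 8 probes give 8 of 8 in both. RT1-Da was 11.0-fold higher (3.45 ± 0.49, adjusted p = 9.70e-07) and Cd74 7.02-fold higher (2.81 ± 0.42, adjusted p = 2.36e-06). In periinfarct cortex 3 of 9 were called higher at 3 d (3.9% of all), both RT1-Da probes and RT1-Ba, whose call is again no support. RT1-Da differed by 1.57 ± 0.49 (adjusted p = 0.0213). Without the periinfarct array of pool 11 at 3 d the count was 8 of 9, without pool 12 it was 1, and with any one of pools 1, 2, 9 and 10 left out it was 0 of 9.

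Whether the rise from 24 h to 3 d was larger in the core than in periinfarct cortex was tested as an interaction. The estimate was above 0 for all 9 probes, between 0.96 and 2.32, but 0 of 9 were called by limma (2.39% of all were called higher), with 7 of 9 at an unadjusted p below 0.05 and adjusted p from 0.0502 to 0.337. RT1-Db1 was at 1.99 ± 0.70 (adjusted p = 0.0566) and RT1-Ba at 2.18 ± 0.75 (adjusted p = 0.0524). At 24 h RT1-Ba was above background on only 1 of 4 core and 2 of 4 periinfarct arrays. It passed the filter only through groups at 3 d, so that its part in the counts here is no support. The count moved with the setting: with the pool as a random block 6 of 9 were called, and the share of all probes called in either direction was 9.9% against 6.35% without it.

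Pool 11 stood apart in more than the class II genes. In periinfarct cortex at 3 d the mean log2 level over 16 microglia and macrophage markers, relative to healthy cortex, was 0.35 in pool 11 and 2.28, 2.45 and 1.91 in pools 9, 10 and 12. Over 5 monocyte markers it was 0.52 in pool 11 against 3.24, 3.57 and 2.54, and over 6 neuron markers it was -0.11 against -0.65, -1.02 and -0.31. Members, myeloid markers and neuron markers were thus all nearer to healthy cortex on that array, and the part of tissue sampling in this was not tested. Oligodendrocyte markers did not show this, at -0.36 in pool 11 against 0.04, -0.56 and -0.01 in pools 9, 10 and 12. Astrocyte markers were at 0.37 in pool 11 against 0.63, 0.35 and 1. With both pool 11 arrays left out, all 9 member probes were still called against healthy cortex in both areas at 3 d, with RT1-Da at 4.99 in the core and 3.86 in periinfarct cortex. Of all probes 34.1% and 11.3% were then called in either direction, against 26.5% and 7.31% with these arrays.

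The members moved closely together, with 1 exception, in a pattern that genes outside the family shared. Over the 44 arrays the 28 pairs among the 8 probes without the second RT1-Bb probe had Pearson correlations between 0.914 and 0.994, and between 0.617 and 0.976 after the group means were subtracted. The 8 pairs with that probe had 0.731 to 0.84 and, within groups, 0.144 to 0.523. The points share arrays and normalization, and these values are descriptions. The lowest, 0.144, was between the 2 RT1-Bb probes themselves. The pattern was not particular to the members: Skap2 and Cd68 each correlated at r = 0.983 with the mean z score of the main member probes.

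That second RT1-Bb probe differed widely between pools of sham-operated rats, and pools 13 to 16 stood in the same order in both hemispheres. In ipsilateral cortex of pools 13 to 16 it was at 1.65, 4.33, 0.70 and 6.72, and in contralateral cortex of the same pools at 2.41, 5.18, 0.80 and 6.35. In pools 5 to 8 it was at 7.14, 5.13, 4.85 and 1.71 and at 4.63, 4.04, 4.81 and 3.02. There pool 8 was lowest on both sides, but pool 5 was highest in ipsilateral and pool 7 in contralateral cortex. Pools 8, 13 and 15 were not well above background on either side and pool 16 lay within the range of the core at 24 h on both, whereas the main RT1-Bb probe stayed between 4.72 and 6.26 on all 16 sham arrays. Over the 8 sham pools, with the mean of each time subtracted, the hemispheres correlated at r = 0.884 (exact permutation p = 0.0104 two-sided, 576 permutations within time, n = 8, adjusted over 10 probes 0.061) with a Spearman rho of 0.81 (exact permutation p = 0.0486, adjusted 0.243), and r was 0.857 without the 2 pools farthest from the median. The unnamed RT1-D beta1 probe had r = 0.872 (exact permutation p = 0.0122, n = 8, adjusted 0.061), a rho of 0.857 (exact permutation p = 0.0191, adjusted 0.191) and r = 0.849 without 2 pools. Both fail the correction over 10 probes. Pool 16 was highest of pools 13 to 16 on the RT1-Bb probe and lowest on the RT1-D beta1 probe in both hemispheres. RT1 genes are known to be highly polymorphic and Sprague-Dawley rats are outbred, and whether alleles that bind a probe differently took part was not tested.

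**Figure D3:**
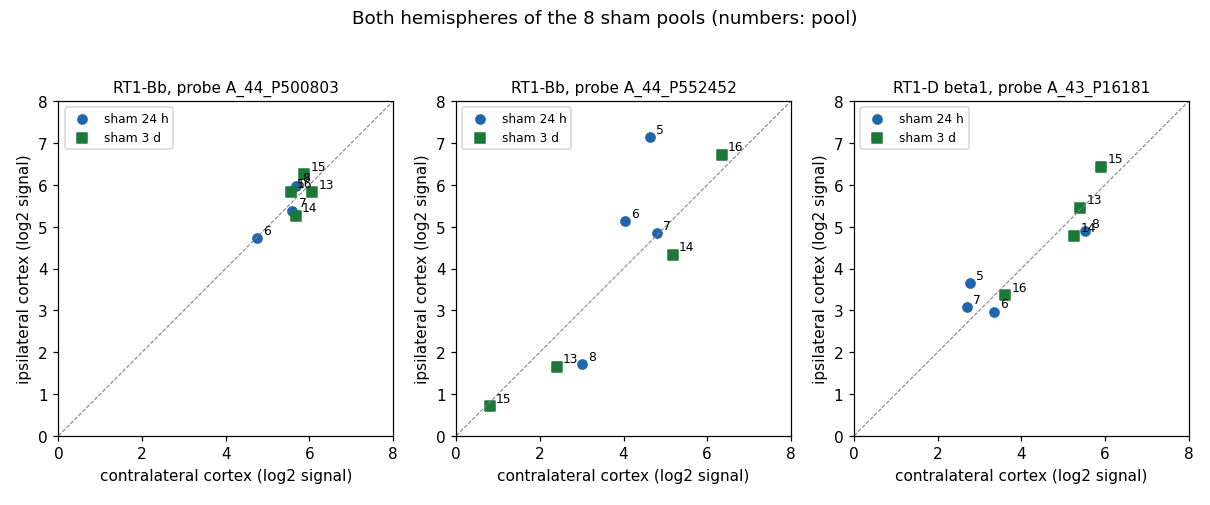
Ipsilateral (y axis) against contralateral (x axis) normalized log2 signal of 2 RT1-Bb probes and an RT1-D beta1 probe in the 8 sham pools; points are pools, labelled by number, circles are 24 h, squares 3 d, and the dashed line is equality. The main RT1-Bb probe lies in a narrow cluster, while the second runs from 0.70 to 7.14 along the line.

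Genes that work with class II were described from lists, by the main probe of each gene. Of all tested probes 6.71% were called higher in the core and 7.79% in periinfarct cortex at 24 h, and 13.1% and 6.17% at 3 d. Of 10 genes of class II antigen processing 8 were called higher in the core at 3 d and 4 in periinfarct cortex. At 24 h it was 1 in each area, near the shares of all probes. The median in the core was 0.28 at 24 h and 1.56 at 3 d. Ifi30, the thiol reductase that unfolds proteins in lysosomes, rose by 4.84 in the core at 3 d, cathepsin E (Ctse) by 2.95 and legumain (Lgmn) by 2.74. Cathepsin S (Ctss), which trims the invariant chain, stood at -0.31 in the core at 24 h and was called higher, by 1.20, at 3 d. The ubiquitin ligase Marchf1, known to remove class II from the surface, was not called (0.74 in the core at 3 d). Ifi30 alone of the list was called higher at 24 h, by 1.78 in the core and 1.99 in periinfarct cortex.

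Of 7 genes of the RFX, NF-Y and CREB complexes 1 was called higher in the core at 3 d, Creb1 (1.48), and 0 in periinfarct cortex, shares that are near or below those of all probes. Rfx5 was called lower at 24 h, at -1.06 in the core and -1.20 in periinfarct cortex. The list's median was -0.11 in the core at 24 h and -0.03 at 3 d. Of 8 measured genes of the interferon gamma pathway 4 were called higher in the core at 3 d (13.1% of all probes) and 2 at 24 h (6.71% of all). The guanylate-binding protein Gbp2 (2.80) and the chemokine Cxcl10 (2.65) had the largest changes in the core at 3 d, and both were already called at 24 h, at 2.00 and 2.87. The receptor chain Ifngr1 rose by 1.46 and the transcription factor Irf1 by 1.04, in the core at 3 d. At 24 h they stood at -0.09 and 0.64, and the difference between the times was called for Ifngr1 (1.55, adjusted p = 2.14e-04) and not for Irf1 (0.39, adjusted p = 0.208). The cytokine Ifng itself was well above background on 0 of 44 arrays.

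Costimulatory genes, which give T cells the second signal, were called early. Of 5 measured genes 4 were called higher than in healthy cortex in each of the 4 ischemic groups. The shares of all probes called higher were 6.71% in the core and 7.79% in periinfarct cortex at 24 h, and 13.1% and 6.17% at 3 d. Cd86 rose by 2.08 in the core at 24 h and 3.61 at 3 d, Cd40 by 1.28 and 2.69, and Icam1, an adhesion molecule, by 2.48 and 2.40. Of 23 measured genes of MHC class I, which presents peptides from within the cell, 19 were called higher in the core at 3 d, with a median of 1.57, with 3 in the core and 11 in periinfarct cortex at 24 h. RT1-A3 was called at 2.65 in the core at 3 d, but was above background on 1 of 4 healthy arrays, and Tap1, a chain of the peptide transporter, rose by 2.17 in the core at 3 d and by 1.33 at 24 h. Class I probes recognize near-identical genes, so that single class I symbols are uncertain. The further class II beta chain RT1-Db2, close in sequence to RT1-Db1 and for that reason uncertain, rose by 3.75 in the core at 3 d, and RT1-DOb, known from B cells, was called at 2.93, but was above background on 1 of 4 healthy arrays.

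**Figure D4:**
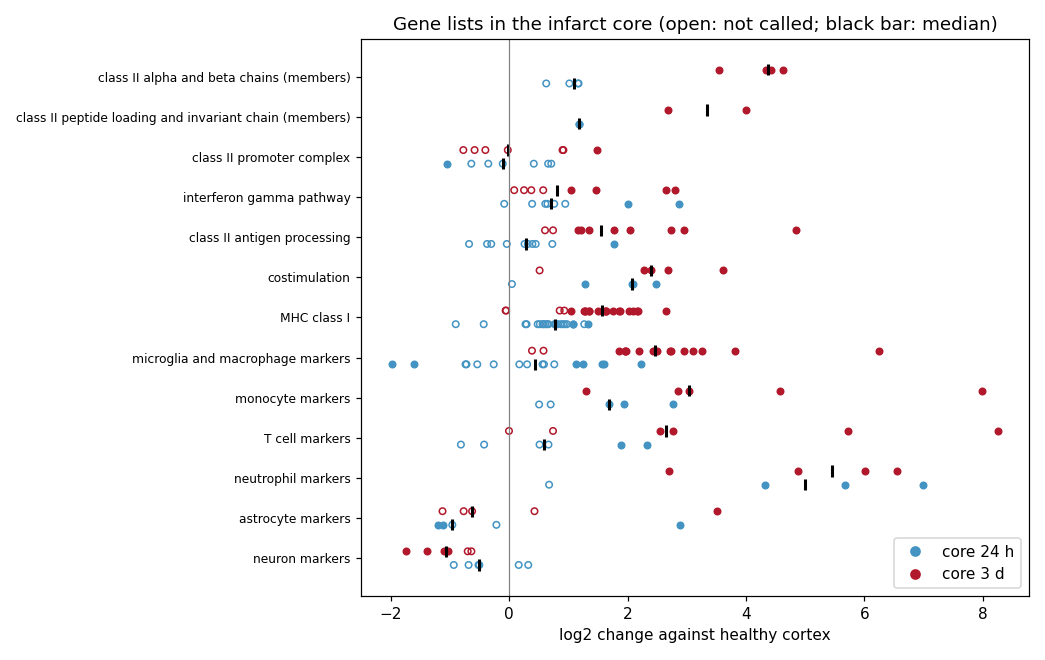
Log2 change against healthy cortex (x axis) in the core at 24 h and at 3 d for each measured gene of 13 lists (y axis); filled points were called, open points were not, and black bars are medians. The median of the 4 class II chains moved from 1.09 to 4.38, that of the promoter complex from -0.11 to -0.03.

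Most markers of microglia, macrophages, monocytes and neutrophils were called higher in the core at 3 d, but the lists differed at 24 h. Their part in the class II levels was not tested. Of all tested probes 13.1% were called higher in the core and 6.17% in periinfarct cortex at 3 d, and 6.71% in the core at 24 h. Of 16 microglia and macrophage markers 14 were called higher in the core at 3 d and 13 in periinfarct cortex, with a list mean per array of 2.17 to 3.03 in the core. At 24 h 5 were called higher and 2 lower in the core, and the list mean was only 0.10 to 0.42. Tmem119, a marker of resident microglia, stood at -1.99 in the core at 24 h, called lower, and at 0.38 at 3 d, not called. P2ry12 and Cx3cr1, also known from resident microglia, stood at -0.73 and 0.17 at 24 h, neither called, and were called higher at 3 d, at 1.96 and 2.19. The lysosomal Cd68 rose by 2.23 at 24 h and 6.26 at 3 d. Of 5 monocyte markers 5 were called higher in the core at 3 d and 3 at 24 h, among them the lectin Fcnb at 8.00 and 2.77. Of 4 measured neutrophil markers 4 were called higher in the core at 3 d and 3 at 24 h, with Lcn2 at 6.55 and 7.00.

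Lymphocyte and dendritic cell markers were measured less well. Of 6 measured T cell markers 4 were called higher in the core at 3 d (13.1% of all probes), with list means per array from 2.68 to 3.82. Cd8b rose by 5.72, Cd3g by 2.76 and Cd2 by 2.54, and Cd8a was at least 75.3-fold higher, since it was above background on no healthy array. Cd3d and Lck were not called (0.74 and -0.01), and Cd4 was well above background on 0 of 44 arrays. Of the 4 B cell markers with a probe 1 was measured, Fcer2, which was not called (-0.33 in the core at 3 d). Of 3 measured dendritic cell markers Batf3 rose by 3.65 and Clec10a by 2.37 in the core at 3 d, and Flt3 was not called (-0.97).

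Markers of resident cells of the cortex were mostly not called higher. Of all tested probes 13.1% were called higher in the core at 3 d, near the shares of the astrocyte and endothelial lists. In either direction it was 26.5%. Of 6 measured neuron markers 4 were called lower in the core at 3 d, Snap25 (-1.74) and Neurod6 (-1.39) among them, and 0 at 24 h. Of 5 astrocyte markers 1, Gfap, was called higher in the core at 3 d (3.51), and 0 were called lower. Of 6 endothelial markers 1, Tie1, was called higher (1.20), and of 4 measured oligodendrocyte markers 0 were called in the core at 3 d. Against the label of cortex, 6 of 6 measured neuron and 4 of 4 measured oligodendrocyte markers were well above background on 44 of 44 arrays.

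The genes whose pattern over the 44 arrays was most like that of the members were ranked by Pearson's r with the mean z score of the 6 main probes, with no test. RT1-Db2 came first (r = 0.991), then Skap2 (0.983), Cd68 (0.983), Myo1f (0.983), Cmtm7 (0.982), Ctsc (0.981), Cyba (0.981), Lyz2 (0.98), Ncf1 (0.979) and Dock8 (0.979). Cyba and Ncf1 encode parts of the phagocyte oxidase, and Ctsc encodes a lysosomal protease. After subtraction of the group means, which leaves the differences between pools, the first were RT1-Db2 (0.953), the Fc receptor Fcgr1a (0.932), Cyba (0.931), the adaptor Tyrobp (0.927) and Cd68 (0.919), followed by Ifi30 (0.918), Skap2 (0.914), Arpc1b (0.914), Fermt3 (0.913) and Fcer1g (0.913). Cd68, Cyba, Skap2 and RT1-Db2 were thus in both sets of 10.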

How the data were processed

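The authors obtained Cy3 intensity with Feature Extraction 10.7.3.1 (Agilent), per the file headers with background subtracted and no normalization between arrays. The deposited table of log2 values, per the paper quantile normalized and filtered in GeneSpring, named the member probes and served as an alternative. The deposited per-spot flag scores (0 or 1) mark uneven, outlying and above-background spots. The labels name a microRNA labelling kit, whereas the paper describes one-color mRNA labelling.

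Here intensities were floored at 1, quantile normalized over 44 arrays, and taken as log2. Uneven and outlier spots were set missing, and spots of a probe averaged. Probes above the 20th percentile and well above background in at least 75% of the arrays of a group, with a coefficient of variation over 2.5%, were kept (26033). The 11 groups were fitted with limma 3.58.1 in R 4.3.3, with no block. Figures used matplotlib 3.10.9 in Python 3.11.15. The main probe of a gene had the highest mean signal. All member probes are reported, and list genes named are the largest called changes in the core at 3 d, except Rfx5, Ctss, Marchf1, Tmem119, P2ry12, Cx3cr1, Cd3d, Lck, Flt3, Fcer2 and genes never above background, chosen after their values were seen. The members and lists were chosen with earlier results of these data known. Labels number pools of the same rats across areas: same-pool deviations correlated on average at 0.205 (core and periinfarct, 24 h), -0.00874 (3 d), and 0.393 and 0.364 (sham hemispheres). The fit was tested on simulated data. Alternatives were other scalings and background correction, the deposited table, no filter, other fits, the slide or the pool as a block, other controls and each array left out. Healthy contralateral cortex was not analysed here.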

Additional observations from a re-analysis of the deposited data

Results flagged for a closer look

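Arrays that lay far from the other 3 of their group by Dixon's criterion were found in 13 of the 99 sets of 4 arrays (9 member probes in 11 groups). Chance alone gives about 1 in 20 for a single set, but these probes move together on the same arrays. The 13 are thus not independent and cannot be set against that rate. Pool 11 was the low one in the core at 3 d for Cd74 (11.8, others 13.1 to 13.2), RT1-Da (10.5, others 11.8 to 12.0) and the second RT1-Bb probe (8.54, others 10.6 to 10.9), and in periinfarct cortex at 3 d for the second RT1-Bb probe (5.19, others 9.12 to 9.84). RT1-Ba was high in sham pool 5 at 24 h on both sides (1.96 ipsilateral and 1.23 contralateral), though not above background. The main RT1-Bb probe was high in core pool 3 at 24 h (7.20) and low in contralateral sham pool 6 at 24 h (4.76), and the second was high in contralateral pool 12 at 3 d (6.60). RT1-DMa was low in contralateral pool 1 at 24 h (9.88), RT1-Da was high in contralateral sham pool 13 at 3 d (7.12), and RT1-Db1 was high in contralateral pool 2 at 24 h (6.44) and in healthy pool 17 (6.57).

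The change from healthy cortex differed between 24 h and 3 d, by limma's test of the difference itself. In the core this difference was called for all 6 genes, at 3.45 for RT1-Da, 3.17 for RT1-Db1, 3.81 for RT1-Ba (above background on 1 of 4 core arrays at 24 h), 2.53 for RT1-Bb, 1.52 for RT1-DMa and 2.81 for Cd74. In periinfarct cortex it was called for RT1-Da (1.57) and RT1-Ba (1.63, above background on 2 of 4 arrays at 24 h).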

How the results depend on the processing

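Percentages in brackets are shares of all tested probes called in either direction. Against healthy cortex all 9 member probes were called higher in the core at 3 d under every alternative run (26.5% in the main fit, 10.6% with normexp). In periinfarct cortex at 3 d the count was 8 or 9 (7.31% in the main fit) except with only the compared groups fitted, where it was 0 (1.14%). At 24 h the core count, 2 (12.6%), was 4 on the authors' table (12.8%), 6 with only the compared groups (12.5%) and 1 with the slide as a block (9.6%). It was 7 against time-matched sham cortex (9%) and 7 against contralateral cortex (9.22%). RT1-Ba, above background in neither control, was among the 7 both times. The periinfarct count at 24 h, 6 (16.3%), was 3 with normexp (4.89%). The core and periinfarct difference at 3 d, 6 (4.61%), was 0 with only the compared groups (0%), 1 with the slide as a block (4.42%) and 0 with the pool as a fixed block (0%). The periinfarct count of 3 between times (6.56%) was 0 with only the compared groups (3.47%) and 8 without both pool 11 arrays (8.85%). The interaction, 0 (6.35%), gave 2 with scaling to the 75th percentile (5.93%), 5 with normexp (2.32%) and 3 on the authors' table (7.93%). It gave 6 with the pool as a random block (9.9%) and 3 without both pool 11 arrays (10.6%). RT1-Ba was called with the scaling, on the authors' table and with the random block, and its part there is no support. The pool as a block changed no other count by over 1.5 times. With each array left out the counts ran from 1 to 3 for the core at 24 h (1 without core pools 2 or 3 or healthy pools 18 or 20), from 2 to 7 for periinfarct cortex at that time (2 when periinfarct pool 4 was dropped, 3 when its pool 3 or healthy pool 20 was), from 0 to 8 for core against periinfarct at 3 d (0 without core pool 9 or periinfarct pool 11, 1 without core pool 10), from 0 to 8 for periinfarct between times (1 without pool 12) and from 0 to 7 for the interaction (7 without core pool 11 or periinfarct pool 10, 6 without periinfarct pool 2, 3 without periinfarct pool 9, 1 without core pool 3 or periinfarct pools 1 or 12). RT1-DMa between core and periinfarct at 24 h was -0.017 with normexp and ran from -0.018 to 0.078 with each array left out, and RT1-Bb from -0.42 to 0.025. The shares of all probes with each array left out are not given here, and the causes of these moves were not tested. With 4 pools a group, and no level for RT1-Ba and Ciita in most control arrays, small changes were not detectable.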
